A study of Macaca mulatta with 9 samples.

Results

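WNT5A, WNT5B and SFRP1 are 3 genes of Wnt signalling that were described here in the prostates of grown rhesus monkeys whose mothers had received the dioxin TCDD. They were taken as every probe to which the authors' deposited table of dose differences gives one of these 3 symbols. This gave 3 probes, 1 per gene, of 1247 probes with a gene symbol in that table (1212 symbols) and 20217 probes on the array. That table was selected by the values of these same arrays (by its header, a 1-way analysis of variance p no higher than 0.05 and a difference of 1.5-fold or more), so the levels of the 3 genes are given as a description, with no test. The probe of WNT5A is A_01_P001364, that of WNT5B is A_01_P005729 and that of SFRP1 is A_01_P006484. The table describes all 3 probes by human transcripts, and for WNT5B it names transcript variant 2.

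The animals were offspring of rhesus monkey (Macaca mulatta) dams in 3 groups: vehicle (0 ng/kg), 30 ng/kg and 300 ng/kg TCDD as the first dose. The dams were injected under the skin on day 20 of gestation. A top-up of 5% of that dose followed at intervals of 30 days through pregnancy and nursing, the last on day 90 after birth, and the prostate was taken 7 years after exposure. Each group had 3 offspring and each offspring gave 1 array of total RNA from frozen prostate, 9 arrays in all. The labels do not say whether the offspring of a group had different dams, nor which zone of the gland was sampled. TCDD is a persistent ligand of the aryl hydrocarbon receptor, and the series asks what this early exposure does to the prostate glands and their stroma.

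Wnt proteins are secreted, lipid-modified ligands that bind Frizzled receptors. One branch of the pathway stabilises beta-catenin, which then works with TCF/LEF factors in the nucleus, while WNT5A and WNT5B, close paralogs, are best known for signals through planar polarity and calcium routes that do not need beta-catenin. SFRP1 is a secreted protein with a Frizzled-like domain that binds Wnt proteins outside the cell. In the developing prostate WNT5A and SFRP1 are known as stromal factors that act on budding and branching of the epithelium.

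At 300 ng/kg the WNT5 paralogs lay on opposite sides of vehicle, WNT5A 2.36-fold higher and WNT5B 2.37-fold lower, with no overlap between the 3 arrays of each group. SFRP1 was 2.24-fold higher than vehicle at this dose, with 1 overlapping array. At 30 ng/kg all 3 genes overlapped vehicle: WNT5A was 1.35-fold higher, WNT5B 1.16-fold lower and SFRP1 1.17-fold lower. By group mean, WNT5A thus went up from vehicle to 30 to 300 ng/kg, WNT5B went down in the same order, and SFRP1 was lowest at 30 ng/kg. The arrays lay on slides that nearly follow dose: with slide as a term in the fit the 30 ng/kg differences of WNT5A and WNT5B turned to -0.05 and 0.37 (log2), and their 300 ng/kg differences were 0.45 and -0.33, against 1.24 and -1.25 without it. With the slide term the SEs at 300 ng/kg were 0.64 for WNT5A and 0.42 for WNT5B. In limma's fit across 15160 tested probes, 0 probes (0%) had a Benjamini-Hochberg adjusted p under 0.05 in any of the 3 comparisons, so none of the 3 genes was called. An unadjusted p under 0.05 was found for 766 probes (5.05%) at 30 ng/kg against vehicle, 2357 (15.5%) at 300 ng/kg against vehicle and 3130 (20.6%) between the doses. Groups that did not overlap, in either direction, were found for 9.38%, 22.7% and 25.6% of tested probes in these comparisons. By direction, 4.93% of tested probes were higher and 4.45% lower without overlap in the first, 11.5% and 11.2% in the second, and 11.2% and 14.4% in the third. Among 1081 genes named in the authors' deposited table, groups did not overlap for 27.0%, 81.8% and 79.8% in the same order. That table was selected for a difference on these arrays, so a lack of overlap was common among its genes at 300 ng/kg.

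Levels are given as log2 of the processed signal over the 75th percentile of signal on the same array, so that 0 is the level of that percentile and a step of 1 is a doubling. A level is compared between arrays for 1 probe and never between probes, since probes differ in how well they bind. Signals of all 3 genes were clear: each was well above background, unsaturated and free of outlier flags in all 18 of its spots, 2 on each of 9 arrays. The ratio of the spot's median signal to its local background ran from 2.91 to 17.9 for WNT5A, from 4.29 to 20.2 for WNT5B and from 6.82 to 199.8 for SFRP1. WNT5A was therefore the gene read closest to background.

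WNT5A is the ligand that was higher at 300 ng/kg. In vehicle its level was -2.74, -2.89 and -2.32 in replicates 1, 2 and 3, a mean of -2.65 ± 0.29 (SD, n = 3). In the 30 ng/kg group it was -2.10, -2.64 and -1.91, a mean of -2.22 ± 0.38 (SD, n = 3). In the 300 ng/kg group it was -0.83, -1.69 and -1.70, a mean of -1.41 ± 0.50 (SD, n = 3). All 3 arrays at 300 ng/kg were above every other array, and replicate 1 stood above the other 2 of its group. The vehicle and 30 ng/kg arrays overlapped, because vehicle replicate 3 was above 30 ng/kg replicate 2, and the exposed array was the higher one in 8 of 9 pairs.

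The WNT5A difference was 1.24 ± 0.32 (SE of the fit over all 9 arrays) on the log2 scale between 300 ng/kg and vehicle, and 2.68% of tested probes had a larger one. The 3 probes come from a table selected for a difference on these arrays. This share, and those of WNT5B and SFRP1 below, therefore do not measure how unusual the genes are. Between the doses the WNT5A difference was 0.81 ± 0.32, a 1.75-fold higher signal at 300 ng/kg with no overlap, and 0.52 without 300 ng/kg replicate 1. Between 30 ng/kg and vehicle it was 0.43 ± 0.32, little more than its error. A background correction by normexp, which models the local background in place of the scanner program's own subtraction, gave 0.82 between 300 ng/kg and vehicle and 0.22 between the doses. The same correction moved the median of all tested probes by -0.22 and -0.50, and relative to that median the WNT5A differences were 1.04 and 0.72.

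WNT5B is the paralog that was lower at 300 ng/kg. Its level in vehicle was -0.37, -0.55 and -1.08 in replicates 1, 2 and 3, a mean of -0.67 ± 0.37 (SD, n = 3). In the 30 ng/kg group it was -0.57, -0.86 and -1.22, a mean of -0.88 ± 0.33 (SD, n = 3). In the 300 ng/kg group it was -1.95, -2.02 and -1.78, a mean of -1.91 ± 0.13 (SD, n = 3). The 3 arrays at 300 ng/kg lay close together and below every other array. Vehicle and 30 ng/kg overlapped, with the exposed array the higher one in 2 of 9 pairs.

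The WNT5B difference was -1.25 ± 0.26 (SE) between 300 ng/kg and vehicle, and 4.60% of tested probes had a lower one. Between the doses it was -1.03 ± 0.26, a 2.05-fold lower signal at 300 ng/kg. Between 30 ng/kg and vehicle it was -0.21 ± 0.26, smaller than its error. At 300 ng/kg against vehicle and between the doses, normexp gave WNT5B differences of -1.17 and -1.13. It moved the median of all tested probes by -0.22 and -0.50 in these comparisons. Relative to that median the WNT5B differences were -0.95 and -0.63, smaller in size than without normexp, as was also found for WNT5A.

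SFRP1 encodes the secreted Wnt-binding protein. Its level in vehicle was -0.29, 0.85 and -0.19 in replicates 1, 2 and 3, a mean of 0.12 ± 0.63 (SD, n = 3). At 30 ng/kg it was -0.41, 0.23 and -0.12, a mean of -0.10 ± 0.32 (SD, n = 3). At 300 ng/kg it was 1.32, 0.63 and 1.90, a mean of 1.28 ± 0.64 (SD, n = 3). Replicate 2 at 300 ng/kg was below vehicle replicate 2, the only one of 9 pairs in which the exposed array was the lower. Against 30 ng/kg all 3 arrays at 300 ng/kg were higher.

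The SFRP1 difference was 1.16 ± 0.41 (SE) between 300 ng/kg and vehicle, with 3.13% of tested probes higher, and 1.38 ± 0.41 between the doses, a 2.61-fold higher signal with 1.64% higher. At 30 ng/kg against vehicle it was -0.22 ± 0.41, and 0.14 without vehicle replicate 2, so that no direction can be given at this dose. Of the 3 genes SFRP1 had the widest spread between arrays of a group, a residual SD of 0.55 on the log2 scale against 0.40 for WNT5A and 0.29 for WNT5B. Its paired spots on an array differed least, with an SD of 0.055 and at most 1.13-fold. The spread between arrays was 9.98 times the spread between spots for SFRP1, 2.93 times for WNT5A and 2.83 times for WNT5B. Each animal gave 1 array, so differences between animals cannot be told apart from those of labelling, array or slide.

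**Figure D1:**
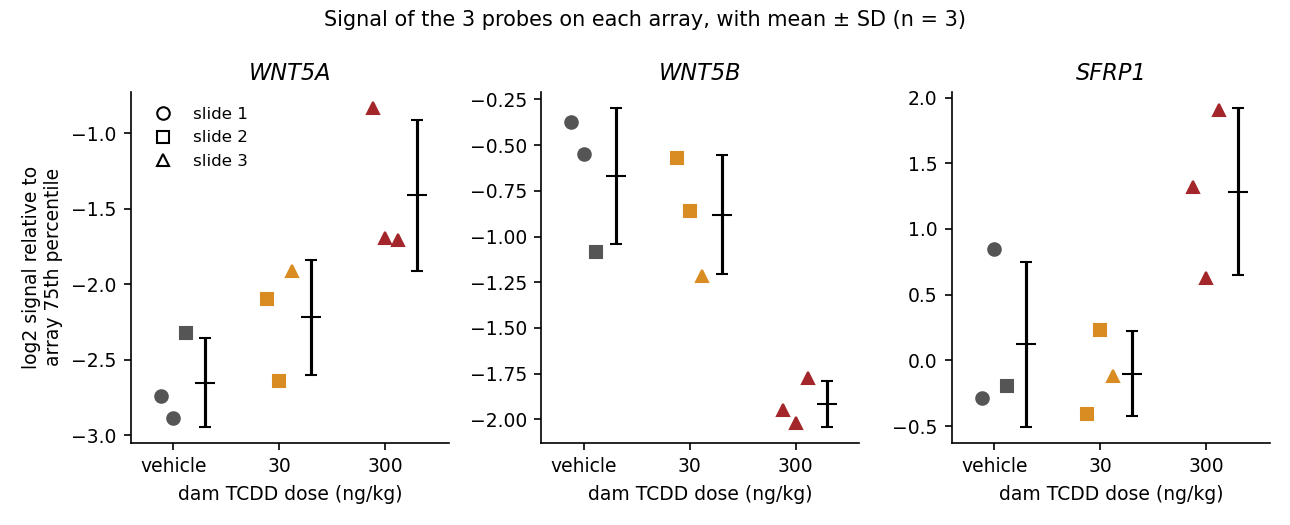
Level of the WNT5A, WNT5B and SFRP1 probes on each of the 9 arrays (y axis, log2 signal over the array's 75th percentile; x axis, dose to the dam in ng/kg), with a symbol for each array slide and bars for the mean ± SD of 3 arrays; the y axes differ between panels. The 300 ng/kg arrays lie above all others for WNT5A (-1.70 to -0.83) and below all others for WNT5B (-2.02 to -1.78), while for SFRP1 1 of them (0.63) lies below a vehicle array (0.85).

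The authors' deposited table gives nearly the same folds for these probes. For 300 ng/kg it lists WNT5A at 2.37-fold up, WNT5B at 2.37-fold down and SFRP1 at 2.24-fold up, all beyond the 1.5-fold that the table requires. For 30 ng/kg it lists 1.35-fold up, 1.16-fold down and 1.17-fold down, all under that limit. The authors' deposited table thus holds the 3 genes through their 300 ng/kg folds.

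The opposite course of the paralogs can be read within each array as the ratio of WNT5A to WNT5B, in which the scaling between arrays cancels. Given as log2 minus the vehicle mean, the ratio was -0.39, -0.36 and 0.74 in vehicle replicates 1, 2 and 3 (SD 0.64, n = 3). At 30 ng/kg it was 0.45, 0.20 and 1.29, a mean of 0.65 ± 0.57 (SD, n = 3). At 300 ng/kg it was 3.10, 2.31 and 2.05, a mean of 2.49 ± 0.54 (SD, n = 3). All 3 arrays at 300 ng/kg were above the other 6, and vehicle replicate 3 was above 2 of the 3 arrays at 30 ng/kg.

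The WNT5A to WNT5B ratio was 5.61-fold higher at 300 ng/kg than in vehicle, a log2 change of 2.49 (SE 0.48), and 3.58-fold higher than at 30 ng/kg, a change of 1.84 (SE 0.48). Between 30 ng/kg and vehicle it changed by 0.65 (SE 0.48), and the exposed array had the higher ratio in 7 of 9 pairs. A change in this ratio shows that the 2 signals moved unequally and does not give the amount of either mRNA. The paralogs were chosen for their opposite courses on these arrays, so the size of the change is a description with no test. With normexp the change was 1.99 between 300 ng/kg and vehicle and 1.35 between the doses. WNT5A and WNT5B each contributed about equally to the 300 ng/kg change as reported, with differences of 1.24 and -1.25. Their shares depended on the processing: the differences were 0.82 and -1.17 with normexp, and 1.62 and -1.24 with array brightness as a covariate. Relative to the median of all tested probes, the normexp differences were 1.04 and -0.95, which are closer to equal in size.

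**Figure D2:**
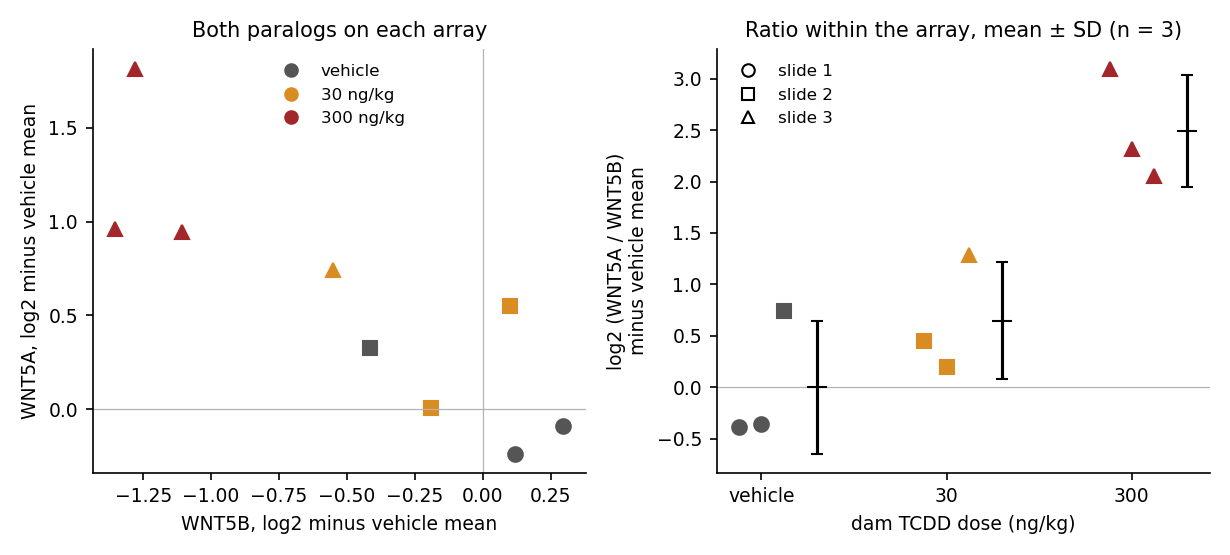
Left, WNT5A (y axis) against WNT5B (x axis) on each of 9 arrays, both as log2 signal minus the vehicle mean; right, log2 of the WNT5A to WNT5B ratio minus the vehicle mean by dose to the dam (ng/kg), with bars for the mean ± SD of 3 arrays and a symbol for each slide in both panels. The 300 ng/kg arrays sit at the upper left, with ratios of 2.05 to 3.10, and the highest ratios of the vehicle (0.74) and 30 ng/kg (1.29) groups are each from the array that lay on a different slide from the other 2 of its group.

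The arrays lay on 3 slides that nearly follow the dose. Slide 1 held vehicle replicates 1 and 2, slide 2 held vehicle replicate 3 with 30 ng/kg replicates 1 and 2, and slide 3 held 30 ng/kg replicate 3 with all 3 arrays of 300 ng/kg. Vehicle and 300 ng/kg shared no slide, so that comparison has no value within one. On slide 2, 30 ng/kg minus vehicle was -0.05 for WNT5A, 0.37 for WNT5B and 0.10 for SFRP1, each with the opposite sign to the difference over all arrays. On slide 3, 300 minus 30 ng/kg was 0.50 for WNT5A, -0.70 for WNT5B and 1.40 for SFRP1, each with the same sign as over all arrays.

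Slide values rest on 1 array on one side of each comparison, vehicle replicate 3 on slide 2 and 30 ng/kg replicate 3 on slide 3. The WNT5A to WNT5B ratio changed by -0.42 within slide 2 and by 1.20 within slide 3. With slide as a fixed term in the fit, which joins 300 ng/kg to vehicle only through the 30 ng/kg arrays, 300 ng/kg minus vehicle was 0.45 for WNT5A, -0.33 for WNT5B and 1.5 for SFRP1, and 0.78 for the ratio. The SEs in this fit were 0.64 for WNT5A, 0.42 for WNT5B and 0.90 for SFRP1, so the WNT5A and WNT5B differences were smaller than their error. Their signs were the same as without the term, and their size was well under that without it. With slide as a random term the differences of WNT5A, WNT5B and SFRP1 were 1.20, -1.20 and 1.17. That fit used the same correlation within slides for all probes, 0.073. With a value so low its differences stay near those without a slide term. The part that the slides have in these differences was not tested.

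**Figure D3:**
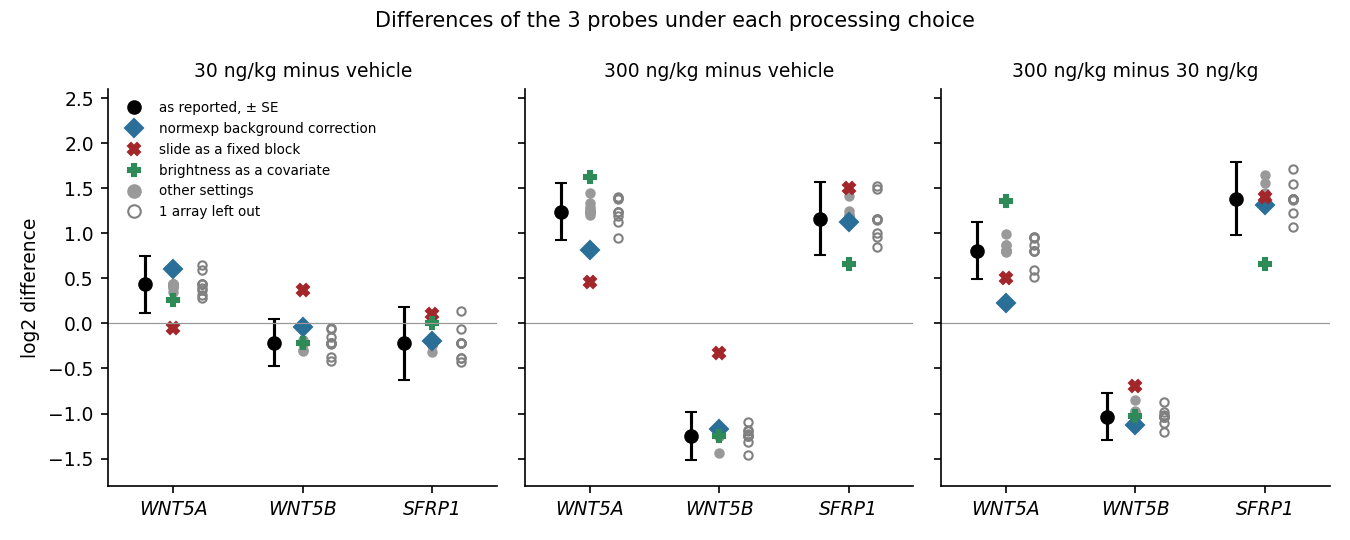
Differences in log2 signal (y axis) of WNT5A, WNT5B and SFRP1 in the 3 comparisons, each in a panel: black points with bars are the reported values ± SE of the fit, coloured symbols are normexp, slide as a fixed block and array brightness as a covariate, grey points the other processing choices, and open points the fits with 1 array left out. At 300 ng/kg against vehicle WNT5A runs from 0.45 to 1.62, WNT5B from -1.46 to -0.33 and SFRP1 from 0.66 to 1.52, while at 30 ng/kg against vehicle each gene has values on both sides of 0.

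Array brightness also differed with dose. The 75th percentile of signal was 514 to 1193 intensity units on vehicle arrays, 343 to 1356 on those of 30 ng/kg and 1258 to 2374 on those of 300 ng/kg. Inside each group the brightest array (replicate 2 of vehicle, replicate 2 of 30 ng/kg and replicate 3 of 300 ng/kg) had the highest SFRP1 level of its group, at 0.85, 0.23 and 1.90. For WNT5A the same arrays had the lowest level of their group, at -2.89, -2.64 and -1.70, the last only just below replicate 2 at -1.69. WNT5B was in the middle of its group on the brightest vehicle and 30 ng/kg arrays and highest on that of 300 ng/kg. These are descriptions of 3 arrays per group, with no test.

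With brightness as a covariate the SFRP1 difference was 0.66 both between 300 ng/kg and vehicle and between the doses, against 1.16 and 1.38 without it. The WNT5A differences became larger, 1.62 and 1.36, and those of WNT5B were -1.24 and -1.03. The part of brightness in the SFRP1 result was not tested beyond these fits.

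**Figure D4:**
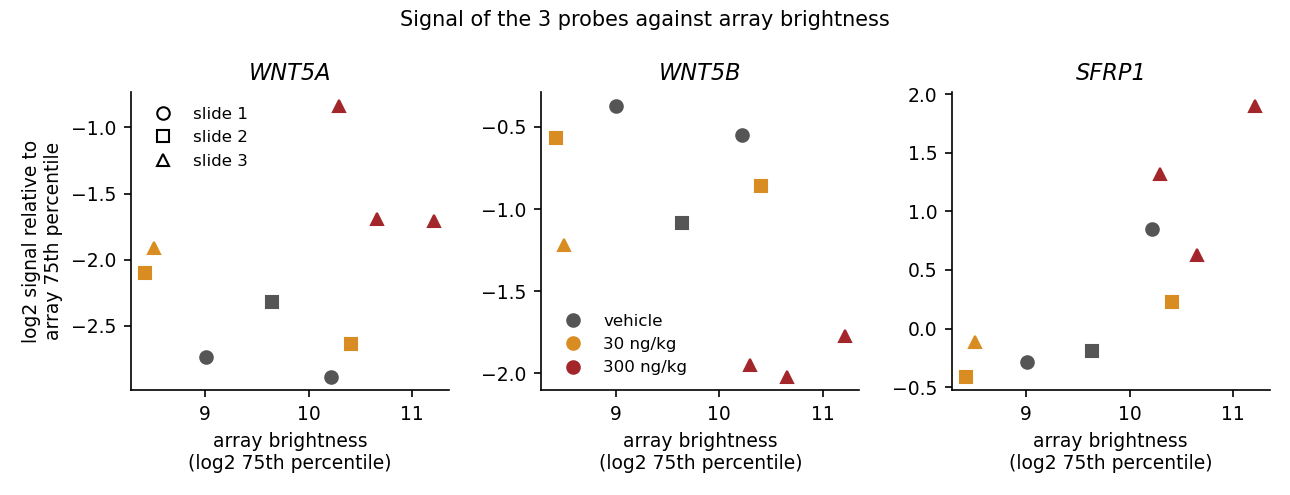
Level of the WNT5A, WNT5B and SFRP1 probes (y axis, log2 over the array's 75th percentile) against the brightness of the array (x axis, log2 of that percentile in intensity units), coloured by dose with a symbol for each slide, 9 arrays. SFRP1 lies highest (1.90) on the brightest array and lowest (-0.41) on the dimmest, while WNT5A is lowest on the brightest array inside each dose group, at -2.89, -2.64 and -1.70.

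Other genes of the pathway could be named only where the authors' deposited table lists them, and that table holds probes chosen for a difference on these arrays. Of 140 genes in 6 Wnt lists, 8 besides the 3 described were named and passed the filter on dim probes: WNT6 and WNT10B among 19 ligands, FZD1 among 20 receptors and co-receptors, TCF7 and NKD2 among 33 genes of the beta-catenin route, CELSR1 and CAMK2B among 31 of the polarity and calcium routes, and ID2 with TCF7 among 20 targets. SFRP1 was the only one named of 22 secreted modulators. None of the 8 had an adjusted p under 0.05 in limma's fit. Of the 8, 5 were above vehicle at 30 ng/kg (median 0.14, against 0.17 for 1081 named genes and 0.02 for all tested probes). Against vehicle, 5 were above at 300 ng/kg (median 0.45, against -0.32 and -0.01), and 4 of 8 were above 30 ng/kg (median 0.22, against -0.51 and -0.03). Groups did not overlap in 2 of 8 genes at 30 ng/kg, 5 at 300 ng/kg and 8 between the doses, against 27.0%, 81.8% and 79.8% of the named genes.

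The other 2 ligands, WNT10B and WNT6, were highest at 30 ng/kg, the dose at which WNT5A and WNT5B overlapped vehicle. WNT10B, a ligand best known for beta-catenin signalling, was at -3.50, -3.23 and -2.57 in the vehicle group, -0.69, -1.17 and -2.09 in the 30 ng/kg group and -3.62, -2.56 and -4.01 in the 300 ng/kg group. All 3 arrays at 30 ng/kg were above the other 6, with a difference from vehicle of 1.78 ± 0.47 (SE) and from 300 ng/kg of -2.08 ± 0.47 (300 minus 30 ng/kg). WNT6 differed from vehicle by 0.81 ± 0.27 at 30 ng/kg and by 0.15 ± 0.27 at 300 ng/kg, where normexp turned its sign (-0.42) as did slide as a fixed block (-0.78). In that comparison normexp moved the median of all tested probes by -0.22. On slide 2, the only one with both vehicle and 30 ng/kg arrays, WNT6 was at -3.86 in vehicle replicate 3. On the same slide it was at -3.85 and -3.53 in 30 ng/kg replicates 1 and 2. Slide as a fixed block also turned the small WNT10B difference at 300 ng/kg, from -0.30 to 0.34. The authors' deposited table gives WNT10B at 3.43-fold up and WNT6 at 1.75-fold up for 30 ng/kg.

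FZD1, a Frizzled receptor of Wnt ligands, was at -0.01, -0.20 and -0.18 in the vehicle group, -0.76, 0.02 and -0.40 in the 30 ng/kg group and 0.26, 0.72 and 1.15 in the 300 ng/kg group. Every array at 300 ng/kg was above every array of the other groups, with a difference from vehicle of 0.84 ± 0.29 (SE). TCF7, a TCF/LEF factor that works with beta-catenin and is itself a known Wnt target, was 1.05 ± 0.32 above vehicle at 300 ng/kg, and its other probe gave 1.05 as well. NKD2, which binds Dishevelled and restrains the pathway, had a difference of -1.1 ± 0.33. Neither TCF7 nor NKD2 overlapped vehicle at this dose.

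ID2, a helix-loop-helix inhibitor known as a target of both Wnt and BMP signals, had the largest difference of these genes at 300 ng/kg, 1.62 ± 0.39 (SE), and 0.54 with slide as a fixed block. It was at -0.69, -0.89 and 0.01 in the vehicle group, -0.79, -0.39 and -0.04 in the 30 ng/kg group and 1.33, 0.33 and 1.64 in the 300 ng/kg group. CAMK2B, a subunit of the calcium- and calmodulin-dependent kinase on the calcium route, was -1.5 ± 0.45 at 300 ng/kg and 0.90 ± 0.45 at 30 ng/kg against vehicle. CELSR1, a polarity cadherin, was 0.75 ± 0.34 above vehicle at 300 ng/kg with overlapping groups. It was dim, not well above background on 1 array (30 ng/kg replicate 1). At 300 ng/kg against vehicle normexp gave CELSR1 0.15, with the median of all tested probes moved by -0.22. Its sign turned at 30 ng/kg against vehicle (0.49) and between the doses (-0.35), where normexp moved that median by 0.28 and -0.50.

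Among the 3 genes and these 8, WNT5A, SFRP1, FZD1, TCF7, ID2 and CELSR1 had a positive difference from vehicle at 300 ng/kg above 0.7, and WNT5B, NKD2 and CAMK2B one below -1. WNT5A was unlike SFRP1, FZD1, TCF7 and CELSR1 at 30 ng/kg, where its difference from vehicle was positive (0.43) and theirs were negative, -0.22, -0.25, -0.14 and -0.40. These 30 ng/kg differences were each less than 1.5 times their SE, and the contrast between the genes was not tested. Both doses are set against the same 3 vehicle arrays, so the comparisons with vehicle are not independent of each other. Small differences at 30 ng/kg changed sign with normexp for TCF7 (0.25, and 0.09 with array weights and 0.010 with brightness as a covariate), with slide as a fixed block for ID2 (-0.60) and with array weights for NKD2 (-0.09). The normexp value of TCF7 includes the move of the median of all tested probes, 0.28 in this comparison.

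**Figure D5:**
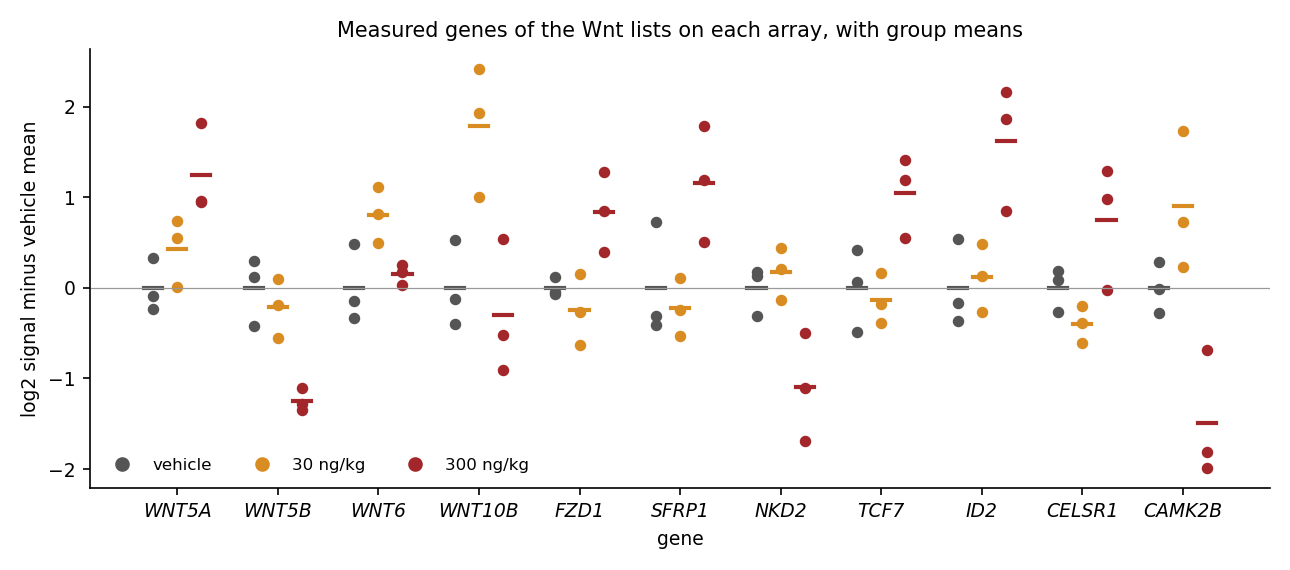
Log2 signal minus the vehicle mean (y axis) for WNT5A, WNT5B, SFRP1 and the 8 other measured Wnt genes (x axis), with a point for each of 9 arrays, coloured by dose, and a line for each group mean of 3 arrays. The means at 300 ng/kg run from -1.5 for CAMK2B to 1.62 for ID2, and WNT10B stands out at 30 ng/kg (1.78).

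Markers of cell types, too, could be named only where the authors' deposited table lists them. That table holds probes chosen for a difference on these arrays, so a marker that did not differ could not appear here. Levels of a marker list are given as the sum of its measured genes, in multiples of the 75th percentile of the array. Of 13 fibroblast and matrix markers 4 were measured (COL1A1, COL1A2, COL5A2 and MMP2), and their summed level was 9.41 to 10.5 in the vehicle group, 9.21 to 12.3 in the 30 ng/kg group and 14.5 to 24.8 in the 300 ng/kg group. Of 12 smooth muscle markers 2 were measured (LMOD1 and TPM2), at 222 to 339, 243 to 449 and 117 to 199. Such a sum follows its brightest probes, here COL1A2 and TPM2. The fibroblast sum was highest, and the smooth muscle sum lowest, on the 300 ng/kg arrays, without overlap with the other groups. All 6 genes also lay apart from vehicle at 300 ng/kg one by one, as did 81.8% of the 1081 named genes. Between the doses COL5A2 (-0.14 ± 0.22, SE), MMP2 (0.63 ± 0.29) and LMOD1 (-0.63 ± 0.28) overlapped, while 79.8% of the named genes did not. With slide as a fixed block COL5A2 turned sign against vehicle, to -0.23. COL1A1, a chain of type I collagen, had a difference from vehicle of 1.54 ± 0.41 (SE) at 300 ng/kg, and LMOD1, an actin-filament protein of smooth muscle, one of -0.80 ± 0.28.

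The 3 leukocyte markers measured of 12 (FCER1A, XBP1 and CTSS) summed to 2.27 to 2.59 in the vehicle group, 2.25 to 4.16 in the 30 ng/kg group and 5.06 to 7.58 in the 300 ng/kg group. That sum follows XBP1, which also serves secretory cells, while FCER1A and CTSS were dim, with 6 of their values in vehicle and 30 ng/kg not well above background. At 300 ng/kg against vehicle normexp gave 1.40 for XBP1, -0.14 for CTSS and 0.41 for FCER1A, in place of 1.39, 0.69 and 2.15, and between the doses it turned CTSS to -0.89 and FCER1A to -0.42. These normexp values include its move of the median of all tested probes, -0.22 against vehicle and -0.50 between the doses. Luminal markers (KLK3, MSMB and TGM4, 3 of 14) summed to 52.4 to 155.1, 143.8 to 162.8 and 52.6 to 219.7. These are secretory products that define prostate epithelium, and all 3 were well above background on all 9 arrays labelled prostate. The luminal sum hides opposite courses at 300 ng/kg, where KLK3 differed from vehicle by -1.47 ± 0.59 (SE) and TGM4, a transglutaminase of prostate secretion, by 8.87 ± 1.44. TGM4 was at 6.81, 1.42 and 7.41 on the 300 ng/kg arrays and between -4.55 and -1.07 on the other 6.

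Endothelium was represented by PECAM1 alone (1 of 6), at 0.916 to 1.22, 2.19 to 3.04 and 0.679 to 1.28, and basal epithelium by S100A2 and ITGB4 (2 of 8), at 4.53 to 6.96, 7.72 to 10.3 and 5.96 to 6.35. The basal sum follows ITGB4, and S100A2, not well above background on 3 arrays, ran the other way: 30 ng/kg minus vehicle was 0.72 for ITGB4 and -0.69 for S100A2, and 300 minus 30 ng/kg was -0.52 and 2.24, with S100A2 at 0.62 and -0.28 under normexp. In these comparisons normexp moved the median of all tested probes by 0.28 and -0.50. KRT13, the 1 gene measured of 10 stratified and periurethral markers, was not well above background on 2 vehicle arrays and on all 3 arrays of 30 ng/kg, and was above it on all 3 of 300 ng/kg. No gene of the seminal vesicle and urothelium list or of the nerve list was named in the table. In whole tissue, fewer cells of a type and less RNA per cell cannot be told apart. The part of cell makeup in the WNT5A, WNT5B and SFRP1 differences was not tested.

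Genes whose course over the 9 arrays was most like each of the 3 were ranked by Pearson's r among 1080 named genes, as a description with no test, since 9 arrays in 3 dose groups give many high values. For WNT5A they were ARMC2 (r = 0.918), C1orf9 (0.902), PIGL (0.898), SDCBP2 (0.882) and NMBR (0.877). For WNT5B they were C20orf29 (0.970), SGCA (0.941), ASIP (0.932), H17 (0.927) and SLC20A2 (0.914). SGCA is a sarcoglycan of the muscle membrane complex, and its difference from vehicle at 300 ng/kg, -1.74, was the lowest of these 5. For SFRP1 they were MAP3K1 (0.965), ESD (0.959), SEC22L1 (0.959), RPA1 (0.955) and TBL2 (0.952). These genes of SFRP1 also had an r of 0.78 to 0.92 with array brightness. The same r ran from -0.71 to -0.56 for the genes of WNT5B and from 0.17 to 0.53 for those of WNT5A. The part of brightness in this likeness was not tested.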

How the data were processed

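Total RNA of 9 prostates was hybridised to 1-colour Agilent arrays. Per the labels, 0.5 ug of RNA was labelled with Cy3, and signals were read with Agilent Feature Extraction 9.5, per the submitters' processing notes. The deposited array files give the intensity of each spot. The authors' deposited table gives linear fold values and group means in log2, with a normalization not given in the sources used here; of its 1502 probes, 1324 were tested, and 1249 and 1243 of their folds at 30 and 300 ng/kg lay within 0.05 (log2) of those computed here.

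Spots flagged as outliers were left out unless both were, spots of a probe were averaged, and the mean was scaled to the array's 75th percentile, given a floor (5 units on the dimmest array) and log2-transformed. A probe was tested if every array of some group had it well above background (15160 of 20217). All 9 arrays entered 1 limma 3.58.1 fit (R 4.3.3, statmod 1.5.0) with group as the only term, Benjamini-Hochberg adjustment and 2-sided tests. The fit was also run on simulated data with independent noise and known changes. Those data held no slide or brightness effects, so that run does not bear on them. The median residual SD was 0.400 (log2), and the number of arrays limits the precision. Named are the 3 genes, all measured Wnt-list genes, up to 4 measured genes per marker list (the brightest unsaturated probe), and the 5 genes most like each of the 3. The members and the gene lists were chosen with earlier results of these data known. Alternatives were other background, scaling, filter, slide, replicate, weight, brightness and spot settings, and each array left out. normexp used the median spot and background signals (offset 50).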

Additional observations from a re-analysis of the deposited data

How the results depend on the processing

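For the 3 genes and the WNT5A to WNT5B ratio, 249 alternative values were computed: 234 moved by less than 1 SD between replicates, and 9 had the other sign, all for 30 ng/kg minus vehicle. Part of the 234 could not move. The filter settings, the replicate block and the loss of an array outside the comparison leave a difference as it was. The 234 is therefore no measure of stability. Slide as a fixed block gave, for 30 ng/kg minus vehicle, -0.047 (WNT5A), 0.37 (WNT5B) and -0.42 (ratio), as did slide 2 alone; for 300 ng/kg minus vehicle 0.45, -0.33 and 0.78; and for 300 minus 30 ng/kg -0.70 (WNT5B), as did slide 3 alone, and 1.20 (ratio). normexp gave WNT5A 0.82 (300 ng/kg minus vehicle) and 0.22 (300 minus 30 ng/kg). Brightness as a covariate gave 1.36 (WNT5A) and 0.66 (SFRP1) for 300 minus 30 ng/kg. The cause was not tested. With 1 array left out, 30 ng/kg minus vehicle ran from 0.28 to 0.65 (WNT5A), -0.42 to -0.05 (WNT5B), -0.43 to 0.14 (SFRP1) and 0.33 to 1.02 (ratio); the lowest WNT5A and ratio values and the WNT5B value nearest 0 came without 30 ng/kg replicate 3. The differences of 300 ng/kg from vehicle and from 30 ng/kg kept their sign under every alternative run, but not all were larger than their SE. With slide as a fixed block the SE against vehicle was 0.64 for WNT5A and 0.42 for WNT5B. With normexp the SE of WNT5A between the doses was 0.38.

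Called probes at an adjusted p under 0.05 were 0 in all 3 comparisons as reported. For 30 ng/kg minus vehicle slide as a fixed block gave 6 and leaving out 1 array 0 to 1. For 300 ng/kg minus vehicle array weights gave 198 and leaving out 1 array 0 to 271, the highest without 300 ng/kg replicate 2. For 300 minus 30 ng/kg median scaling gave 3, slide as a fixed block 2 and array weights 2951; leaving out 1 array gave 0 to 774, the highest without 30 ng/kg replicate 2, with 155 without 300 ng/kg replicate 2 and 1 without vehicle replicate 1. The replicate numbers did not clearly pair the arrays: 5 of 9 same-numbered pairs correlated over 0.1, and 4 of 9 arrays correlated best with their own number. Same-numbered arrays of vehicle and 30 ng/kg had correlations of 0.13, 0.54 and 0.26. They were 0.10, -0.07 and -0.21 for vehicle and 300 ng/kg, and 0.10, 0.02 and -0.26 between the doses. The replicate block gave 1 call for 300 minus 30 ng/kg, 0 in the others, and left the differences of the 3 genes as they were.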
